A study of Mus musculus with 8 samples.

Results

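The immediate early response genes are a set of 37 genes, read here in mouse spleen stroma and matched to probes by gene symbol. The list was chosen with earlier results of these data known. Its members encode transcription factors of the AP-1, EGR, KLF and NR4A families and phosphatases of MAP kinases. Further members encode RNA-binding proteins that shorten the life of short-lived mRNAs, and other early response proteins. Of the 37, 35 had a probe with that gene name on the array, and 30 were detected on at least 4 of the 8 arrays and were tested, each by its brightest probe, among 9971 features. *Fosl2* and *Dusp5* had no named probe, and *Ier5*, *Nr4a1*, *Nr4a3*, *Klf10* and *Btg2* did not pass the detection rule. The RNA came from mSSC-YFP, a C57BL6/N stromal cell line immortalized from E18.5 spleen, marked with a yellow fluorescent protein and used at passage 2 to 6. In the control group (4 arrays) the stroma was cultured for 40 to 48 h with normal splenic B cells of adult mice matched in age to the Eμ-TCL1 mice, at a labelled ratio of 20 B cells per stromal cell, and then sorted away from them. In the leukemic group (4 arrays) it was treated alike with splenic B cells of highly leukemic adult Eμ-TCL1 mice, a model in which the human TCL1 gene, driven in B cells by the immunoglobulin Eμ enhancer, gives rise to a disorder resembling chronic lymphocytic leukemia. Both groups thus carry the same stromal line, 1 line from 1 source, and neither shows the stroma without B cells.

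Immediate early genes are transcribed within minutes of a stimulus, without new protein synthesis, because the factors that switch them on are already present in the cell. Growth factors, cytokines, stretch, cell detachment and stress reach them through the ERK, p38 and JNK kinases, which act on ternary complex factors bound with serum response factor (SRF) at CArG boxes and on CREB at cAMP response elements. Their mRNAs and proteins are short-lived, and several members, such as the phosphatases of the DUSP family and the mRNA decay factor encoded by *Zfp36*, shut the response down again. In fibroblasts and other stromal cells the same genes are known to respond to serum, to wounding and to the handling of the cells.

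All 8 arrays shared 1 chip, on which the groups alternated. Each array detected 13504 to 13938 of its 25697 probes at a median raw signal of 67.2 to 90.2, and precision is limited by how few arrays there are. Values are log2 levels after background correction and quantile normalization, so that equal levels on different arrays mean equal ranks. Of 16 stroma and fibroblast markers with a probe, 13 were detected on all 8 arrays, among them *Col1a1*, *Pdgfrb* and *Thy1*. Of the spleen mesenchyme factors, *Nkx2-5* was detected on all 8 arrays, whereas *Tlx1* and *Tcf21* were detected on none. Leukemic replicate 4 correlated less with the other arrays (r across features 0.955 to 0.970) and held the highest mean level of B cell markers, so results are also given without it. Nothing in the labels tells whether replicates came from different cultures or B cell donors, and p-values then measure only the spread between these samples. In such bulk RNA a change in the number of responding cells and a change in RNA per cell cannot be told apart.

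Upstream sequence is printed for *Fosb*, *Fos*, *Csrnp1*, *Zfp36*, *Nr4a2*, *Dusp1* and *Egr2*, whose levels varied widely between replicates. It is also printed for *Klf6* and *Rhob*, which varied less. Their control SDs were 0.23 and 0.15, against a median of 0.18 over all features. RefSeq windows (GRCm38.p6, 250 bases before to 50 after each annotated start) were found for 30 of the 37 genes. The 150 bases before the start are given 5′ to 3′, and for *Csrnp1*, with 4 annotated starts, those before its farthest upstream start. Capitals mark CArG boxes, the core TGACG of cAMP response elements and the EGR site GCGNGGGCG, on either strand.
Fosb (chr7:19310046-19310195, minus strand): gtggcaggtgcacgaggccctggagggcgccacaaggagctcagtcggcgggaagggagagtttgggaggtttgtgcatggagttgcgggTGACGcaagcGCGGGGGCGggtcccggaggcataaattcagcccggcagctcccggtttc
Fos (chr12:85473740-85473889, plus strand): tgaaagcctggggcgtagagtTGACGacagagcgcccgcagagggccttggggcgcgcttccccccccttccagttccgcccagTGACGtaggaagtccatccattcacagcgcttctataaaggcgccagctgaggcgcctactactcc
Csrnp1 (chr9:119984743-119984892, minus strand): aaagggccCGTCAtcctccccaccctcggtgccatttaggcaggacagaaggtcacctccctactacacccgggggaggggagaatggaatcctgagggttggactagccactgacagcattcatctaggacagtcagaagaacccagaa
Zfp36 (chr7:28379229-28379378, minus strand): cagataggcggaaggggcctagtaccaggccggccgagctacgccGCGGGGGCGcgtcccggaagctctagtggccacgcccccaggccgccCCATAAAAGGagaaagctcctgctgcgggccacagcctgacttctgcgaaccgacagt
Nr4a2 (chr2:57124004-57124153, minus strand): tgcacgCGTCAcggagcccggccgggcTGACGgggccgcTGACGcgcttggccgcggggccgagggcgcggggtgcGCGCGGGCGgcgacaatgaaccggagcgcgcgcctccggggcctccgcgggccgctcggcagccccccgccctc
Dusp1 (chr17:26508473-26508622, minus strand): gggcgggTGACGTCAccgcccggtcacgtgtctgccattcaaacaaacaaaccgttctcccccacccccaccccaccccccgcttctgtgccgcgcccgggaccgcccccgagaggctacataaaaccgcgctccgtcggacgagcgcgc
Klf6 (chr13:5861339-5861488, plus strand): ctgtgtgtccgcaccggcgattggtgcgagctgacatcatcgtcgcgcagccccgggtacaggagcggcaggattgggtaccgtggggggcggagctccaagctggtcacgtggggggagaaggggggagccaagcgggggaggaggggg
Rhob (chr12:8500010-8500159, minus strand): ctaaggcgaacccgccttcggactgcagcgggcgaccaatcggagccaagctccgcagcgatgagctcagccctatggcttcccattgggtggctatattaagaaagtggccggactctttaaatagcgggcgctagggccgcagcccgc
*Fosb*, *Fos*, *Csrnp1*, *Nr4a2* and *Dusp1* each hold at least 1 TGACG core in these stretches, and in *Dusp1* it is part of the full palindrome TGACGTCA that begins 143 bases before the start. *Zfp36* holds a CArG box 58 bases and an EGR site 105 bases before the start, and *Fosb* an EGR site 50 bases before it. *Egr2* holds CArG boxes between its annotated starts, and only 30 bases around the farthest upstream of them are shown (chr10:67537484-67537513, plus strand).
Egr2: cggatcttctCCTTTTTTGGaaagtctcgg
The *Klf6* and *Rhob* stretches hold none of the 3 patterns, which says only that these letters are not in these windows. Whether the patterns go with spread was not tested. Among members not shown, *Dusp2* and *Btg1*, with control SDs of 0.12 and 0.20, hold TGACG in their windows, and *Dusp2* also an EGR site. The signals of *Dusp2* were close to background, and its leukemic SD was 0.47. *Gadd45b*, with a control SD of 1.26, holds an EGR site but no TGACG and no CArG box.

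Over the full windows, TGACG (both strands) was found for 19 of 30 members (63.3%) and for 23.0% of all 27025 genes with a window, and this count includes the genes with the full TGACGTCA, which was found for 3 members (10%) and 2.03% of all genes. A CArG box was found for 3 members (10%, *Egr2*, *Dusp5* and *Zfp36*) and for 1.81% of all genes. The EGR site GCGNGGGCG (both strands) was found for 11 members (36.7%) and 6.27% of all genes, TATAAA on the gene's strand for 7 (23.3%) and 9.77%, and the AP-1 site TGANTCA for 2 (6.67%) and 8.97%. A gene counts if any of its windows holds the letters, and members had 44 windows for 30 genes. A match of letters is a description and not a bound site.

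The comparison asks whether stroma that had met leukemic B cells carried more or less of these transcripts than stroma that had met normal ones. *Csrnp1*, which encodes a nuclear protein that is induced by AXIN1 in human cells, was the only member that rose, with a log2 difference of 1.08 ± 0.87 (SE, 4 arrays in each group), past the rank product threshold of q below 0.05 (q = 0.0217). By that test 1 of 30 members rose and 0 fell, against 37 of 9971 features that rose (0.371%) and 0 that fell. At an unadjusted rank product p below 0.05, 11 of 30 members were higher and 7 lower, against 702 and 698 of 9971 features. *Fosb* counts in both directions (rank product q = 0.0760 for a rise and 0.318 for a fall). The rank product does not weigh a gene's own spread, so these counts are not counts of changed members. By limma 0 members and 0 features passed at an adjusted p below 0.05. At an unadjusted limma p below 0.05 there was 1 member, *Klf6*, against 756 features (7.58%). No member had groups that did not overlap, against 450 features (4.51%).

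Taken by sign alone, 19 of the 30 members (63.3%) had a higher leukemic mean, against 50.6% of all features, and the median difference over members was 0.12 on the log2 scale against 0.0028 over all features. That median rested on single arrays. It was 0.05 without leukemic replicate 4, 0.03 without leukemic replicate 3, 0.05 without control replicate 1, -0.040 without control replicate 2 and 0.28 without control replicate 3. It was 0.20 and 0.21 without leukemic replicates 1 and 2. The number of members with a higher leukemic mean was 12 without control replicate 2. Without leukemic replicate 4 the differences of 23 members either changed sign or moved by over 1.5 times.

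**Figure D1:**
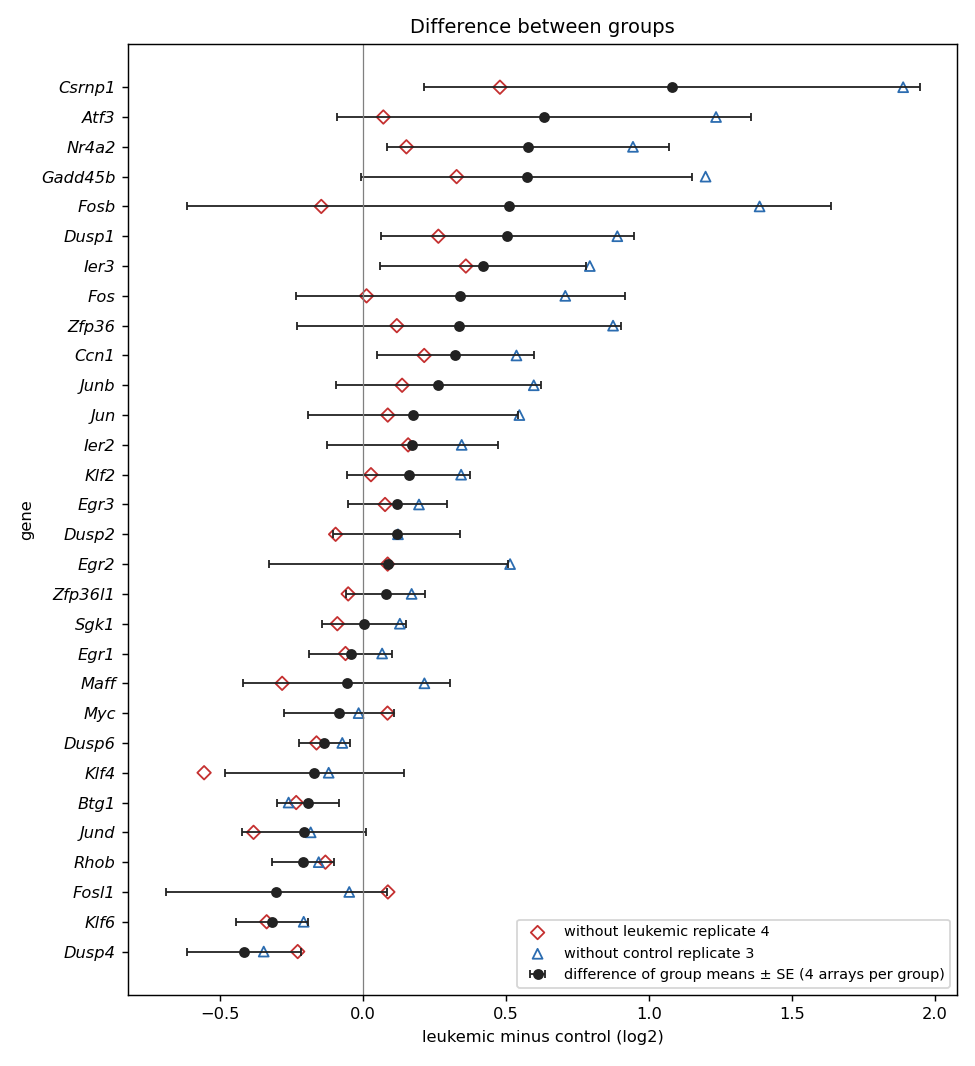
Difference of the leukemic and control group means on the log2 scale for the 30 tested members (black points, bars ± SE, 4 arrays per group), ordered by difference, with the same difference when leukemic replicate 4 (red diamonds) or control replicate 3 (blue triangles) is left out. *Csrnp1* has the highest difference (1.08) and *Dusp4* the lowest (-0.41), and leaving out control replicate 3 moves *Fosb* to 1.39.

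AP-1 is a dimer of FOS and JUN family proteins that binds many promoters and enhancers, and 8 of its 9 listed members and partners were tested, 5 with a higher and 3 with a lower leukemic mean. *Fosb*, a FOS family partner of AP-1, read 9.32, 7.89, 12.81 and 10.69 on control replicates 1 to 4 and 10.02, 7.96, 12.12 and 12.65 on leukemic replicates 1 to 4 (log2 levels). In raw signal that is a range from 267 to 7371, and on the log2 scale it spans a 30.2-fold range over the 8 arrays. Each group held both arrays near the bottom and arrays near the top of that range, so the groups overlapped almost fully. The difference was 0.51 ± 1.13 (limma, 95% interval -1.98 to 3.00, adjusted p = 0.896; rank product q = 0.0760). It was -0.15 without leukemic replicate 4 and -0.25 without control replicate 2.

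*Atf3*, a stress-induced factor of the ATF family that pairs with JUN proteins, read 7.29, 7.13, 10.01 and 8.38 on the control arrays and 8.05, 7.44, 9.35 and 10.52 on the leukemic arrays. Control replicate 3 stood above 3 of the 4 leukemic arrays. The difference was 0.63 ± 0.72 (limma, adjusted p = 0.788) and 0.07 without leukemic replicate 4. *Fos*, given here after its values were seen, read 12.72, 11.17, 13.78 and 13.04 in control and 13.05, 11.55, 13.47 and 14.00 in leukemic cultures, with replicate 2 lowest in both groups and a difference of 0.34 ± 0.57 (95% interval -0.92 to 1.61) that was 0.013 without leukemic replicate 4.

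*Fosl1*, which encodes the FOS family protein FRA-1, had the opposite sign. It read 8.61, 8.78, 9.70 and 8.66 on the control arrays and 8.60, 9.06, 9.42 and 7.46 on the leukemic arrays. Leukemic replicate 4, high for *Fosb*, *Atf3* and *Fos*, was the lowest of the 8 arrays for *Fosl1*, and the difference of -0.30 ± 0.39 was 0.09 without it. *Jund*, the most constantly expressed of the JUN family in many cells, read 9.34, 9.10, 9.10 and 8.59 against 8.46, 8.56, 8.92 and 9.36, and its difference was -0.21 ± 0.22 (limma, adjusted p = 0.774; -0.38 without leukemic replicate 4). The highest and the lowest of these levels were both in the leukemic group. *Jun* and *Junb* differed by 0.18 ± 0.37 and 0.26 ± 0.36, and *Maff*, a small MAF protein without an activation domain, by -0.06 ± 0.36.

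The EGR and KLF proteins are zinc finger factors that bind GC-rich promoter sequence, and 6 of 7 listed were tested, 3 with a higher and 3 with a lower leukemic mean. *Klf6*, a KLF factor with growth-restraining activity, read 12.17, 12.12, 12.55 and 12.03 on the control arrays and 11.80, 11.76, 12.09 and 11.96 on the leukemic arrays. Leukemic replicate 3 was above control replicate 4, and the other leukemic arrays were below all control arrays. The difference was -0.32 ± 0.13 (95% interval -0.59 to -0.04) at an unadjusted limma p of 0.0281 and an adjusted p of 0.639. Its dimmer probe gave -0.25.

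*Egr1*, the most widely used marker of an immediate early response, lay between 14.25 and 14.98 on the control arrays and between 14.34 and 14.76 on the leukemic arrays. Its raw signal was 18882 to 31267 on arrays whose brightest probe read 42800.0 to 48286, and its difference was -0.04 ± 0.15 (95% interval -0.36 to 0.28). *Egr2*, a relative known from myelin and lymphoid development, read 9.09, 9.35, 10.97 and 9.37 in control and 9.19, 9.45, 10.70 and 9.79 in leukemic cultures. It was high on replicate 3 of each group, with a control SD of 0.86 against 0.30 for *Egr1* and a difference of 0.09 ± 0.42. *Egr3* and *Klf2*, a KLF factor of quiescent endothelial and lymphoid cells, differed by 0.12 ± 0.17 and 0.16 ± 0.22. *Klf4*, known from stem cells and epithelia, was measured by 3 detected probes that disagreed in sign (-0.17, 0.20 and 0.32), and the brightest of them was -0.55 without leukemic replicate 4.

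Of 5 other transcription factors 3 were tested. *Csrnp1* read 9.56, 8.79, 12.70 and 10.04 on the control arrays and 10.19, 9.92, 12.15 and 13.16 on the leukemic arrays. Control replicate 3 exceeded 3 of the 4 leukemic arrays, so the group ranges overlapped although the rank product called it. limma, which sets the difference against the gene's own spread, gave a 95% interval of -0.83 to 2.99 and an adjusted p of 0.709. The rank product call was lost when control replicate 1, 2 or 4 or leukemic replicate 3 or 4 was left out, with differences of 0.84, 0.59, 1.00, 0.82 and 0.48. Without control replicate 3 it remained, and *Atf3*, *Fosb* and *Gadd45b* passed as well, with differences of 1.23, 1.39 and 1.20. *Fosb* also passed without leukemic replicate 2.

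*Nr4a2*, an orphan nuclear receptor, read 5.94, 6.02, 7.58 and 6.38 on the control arrays and 6.23, 6.22, 7.45 and 8.33 on the leukemic arrays. Leukemic replicate 4 was the highest of all 8, and the difference of 0.58 ± 0.49 was 0.15 without it. *Myc*, the growth-promoting factor, differed by -0.08 ± 0.19 (95% interval -0.51 to 0.34), and was highest on leukemic replicate 3 and lowest on leukemic replicate 4.

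Dual specificity phosphatases remove phosphate from ERK, p38 and JNK, and 4 of the 5 listed were tested, 2 with a higher and 2 with a lower leukemic mean. *Dusp1*, a nuclear phosphatase of p38 and JNK, read 12.77, 11.71, 14.02 and 12.98 in control and 13.16, 12.54, 13.71 and 14.10 in leukemic cultures. Replicate 2 was the lowest array of each group, and the difference was 0.51 ± 0.44 (0.26 without leukemic replicate 4). *Dusp4*, a nuclear phosphatase, read 9.90, 9.92, 10.05 and 9.53 on the control arrays and 9.38, 9.67, 9.81 and 8.87 on the leukemic arrays. This is the lowest difference among the members, -0.41 ± 0.20 (limma, unadjusted p = 0.0628, adjusted p = 0.639), with leukemic replicate 4 the lowest array and -0.23 without it. All 3 of its detected probes were lower in the leukemic group (-0.41, -0.42 and -0.50). *Dusp6*, a cytoplasmic phosphatase of ERK, differed by -0.13 ± 0.09. *Dusp2*, an inducible nuclear phosphatase, differed by 0.12 ± 0.22, and its 2 probes disagreed in sign.

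*Zfp36*, which encodes tristetraprolin, a protein that binds AU-rich elements and brings on decay of cytokine mRNAs, read 11.43, 10.65, 13.31 and 11.40 on the control arrays and 11.68, 10.82, 12.96 and 12.69 on the leukemic arrays. The highest array was control replicate 3 and the lowest control replicate 2, so that the control group enclosed the leukemic one. The difference was 0.34 ± 0.57 (limma, adjusted p = 0.865) and 0.12 without leukemic replicate 4. Its relative *Zfp36l1* differed by 0.08 ± 0.14, with 1 of 3 detected probes of the opposite sign, and *Btg1*, an antiproliferative protein that acts on mRNA deadenylation, by -0.19 ± 0.11.

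*Gadd45b*, a small stress protein that acts on the p38 and JNK kinases, read 8.43, 8.19, 10.92 and 8.63 on the control arrays and 9.23, 8.59, 10.29 and 10.35 on the leukemic arrays. Control replicate 3 was the highest of all 8 and the other 3 control arrays were below 3 of the leukemic arrays. The difference was 0.57 ± 0.58 (limma, adjusted p = 0.760) and 0.33 without leukemic replicate 4. *Rhob*, a small GTPase with a short-lived mRNA, read 12.19, 12.15, 12.32 and 11.97 in control and 12.00, 12.08, 12.01 and 11.71 in leukemic cultures, with a difference of -0.21 ± 0.11 (limma, unadjusted p = 0.0813, adjusted p = 0.644; -0.13 without leukemic replicate 4). These levels stayed within a 1.53-fold range over all arrays. *Ier3*, a regulator of survival, *Ccn1*, a secreted matrix-associated protein, *Ier2* and the kinase *Sgk1* differed by 0.42 ± 0.36, 0.32 ± 0.27, 0.17 ± 0.30 and 0.0043 ± 0.15.

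The members differed more between arrays of the same group than between the groups. Part of this spread was shared by arrays with the same replicate number. The members' deviations from their group means correlated at 0.67, 0.91, 0.85 and 0.33 between same-numbered arrays. The median SD over the 30 members was 0.53 on the control arrays, against 0.18 over all features, and 0.48 on the leukemic arrays, against 0.22. The difference between the groups made up a median of 5.67% of a member's sum of squares, against 12.2% over all features. *Fosb* had the largest SD of all 9971 features on the control arrays (2.09) and the fourth largest on the leukemic arrays (2.15). Of the 30 members, 17 were among the 10% of features with the highest control SD and 14 among the highest 1%, and on the leukemic arrays these numbers were 14 and 3. The 20 highest control SDs of all features included 6 members, *Fosb*, *Csrnp1* (1.70), *Atf3* (1.32), *Gadd45b* (1.26), *Zfp36* (1.14) and *Fos* (1.10). The spread was larger in control than in leukemic cultures for 18 of 30 members (60%), against 36.2% of all features.

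**Figure D2:**
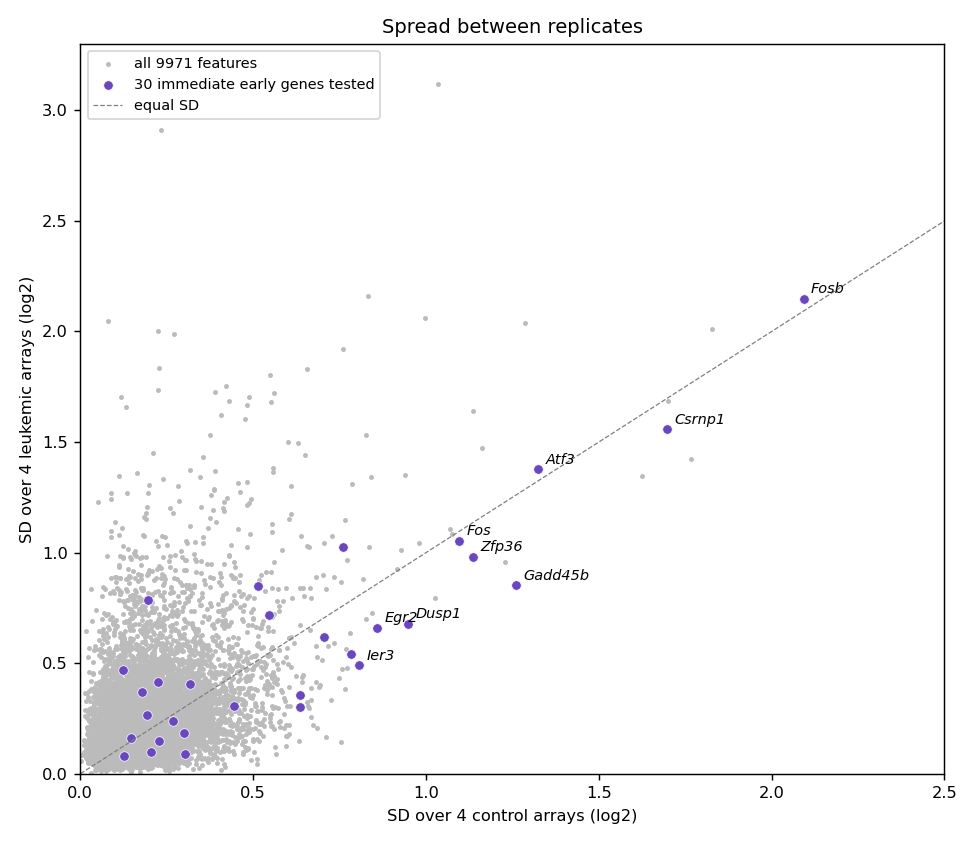
Standard deviation over the 4 control arrays (x axis) and the 4 leukemic arrays (y axis), log2 scale, for all 9971 features (grey) and the 30 tested members (purple), with names where the control SD is above 0.8. *Fosb* lies farthest to the right (2.09), close to the dashed line of equal SD, and the members with a small SD lie in the dense cloud of other features.

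The spread was unequal among the members. AP-1 genes had a median control SD of 0.74, from 0.32 for *Jund* to 2.09 for *Fosb*, and 7 of 8 were in the highest 10% of features. Of the EGR and KLF genes only *Egr2* (0.86) and *Klf2* (0.44) were in that 10%, of the phosphatases only *Dusp1* (0.95), and of the mRNA decay and antiproliferative genes only *Zfp36*. At the other end, *Dusp2* had a control SD of 0.12, *Dusp6* 0.13, *Rhob* 0.15 and *Myc* 0.18, close to or below the median of all features. On the leukemic arrays *Dusp6* (0.08) and *Rhob* (0.16) were below the median of all features (0.22). *Dusp2* (0.47) and *Myc* (0.37) were above it. The signals of *Dusp2* were close to background, so its small control SD does not show a steady transcript. *Klf4* was steady on the control arrays (0.20) and spread on the leukemic ones (0.79), where replicate 4 was highest.

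The same arrays were high or low for most members. Control replicate 3 was the highest control array for 26 of 30 members, against 2318 of 9971 features, and control replicate 2 was the lowest for 17. In the leukemic group replicate 4 was highest for 18 members and replicate 3 for 9, and replicate 2 was lowest for 16. Over all 8 arrays, control replicate 3 held the maximum for 16 members (53.3%, against 7.46% of features) and leukemic replicate 4 for 12 (40%, against 25.2%). The mean log2 level of the 30 members was 10.25, 9.92, 11.24 and 10.38 on control replicates 1 to 4 and 10.32, 10.07, 10.94 and 11.03 on leukemic replicates 1 to 4. Of the 5 arrays with lower means, 3 were control and 2 leukemic. Without control replicate 3 the median control SD over members was 0.24, and the median over all features on those arrays was not computed. *Fosb* still had the largest control SD of all features, and 10 members were among the 10% of features with the highest.

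**Figure D3:**
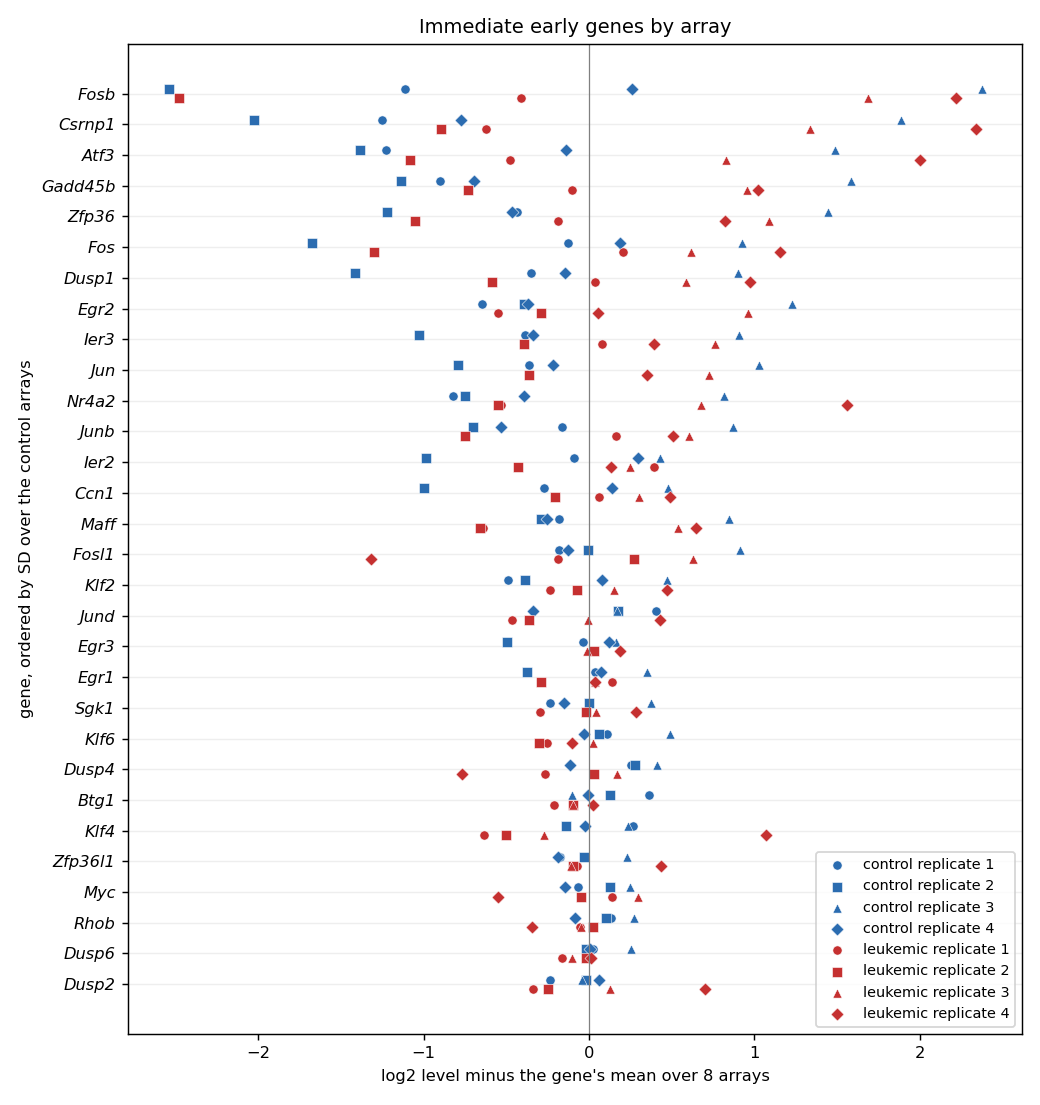
Log2 level of each tested member on each array minus its mean over the 8 arrays, for control (blue) and leukemic (red) cultures, with a symbol for each replicate number and genes ordered by control SD. Control replicate 3 (blue triangles) and leukemic replicates 3 and 4 lie to the right for most genes from *Fosb* down to *Junb*, and replicate 2 of both groups (squares) lies to the left.

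Other early response genes, a separate list of 40 with 36 tested, moved with the same arrays. This list too was chosen with earlier results of these data known, so it is not an independent check on the members. The mean of their log2 levels relative to each gene's own mean was -0.35, -0.67, 0.73 and -0.28 on the control arrays and -0.19, -0.41, 0.48 and 0.68 on the leukemic arrays, against -0.27, -0.60, 0.72, -0.14, -0.19, -0.45, 0.43 and 0.51 for the members. Of these 36 genes 30 had a higher leukemic mean, with a median difference of 0.23 that was 0.08 without leukemic replicate 4, and 8 were among the 20 features with the highest control SD. *Pim1*, a short-lived kinase induced by cytokines, was the only one that rose past the rank product threshold, by 0.86 ± 0.32 (q = 0.0375; limma, adjusted p = 0.639). *Id1*, an inhibitor of basic helix-loop-helix factors (0.78 ± 0.85), and *Amotl2*, an angiomotin family protein (0.74 ± 0.37), did not pass, and without leukemic replicate 4 they differed by 0.33 and 0.36.

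The kinases and factors upstream of the members had a spread near that of all features. Of 32 listed 20 were tested, 10 with a higher and 10 with a lower leukemic mean, with a median control SD of 0.15, and 0 passed the rank product threshold. *Srf*, which encodes the CArG box factor, differed by 0.33 ± 0.15 and *Elk3*, a ternary complex factor, by -0.40 ± 0.17 (limma, unadjusted p = 0.0430 and 0.0353, both adjusted p = 0.639), and *Sos1*, an activator of RAS, by 0.33 ± 0.24. Without leukemic replicate 4 *Srf* differed by 0.20 and *Sos1* by 0.19. The cytoskeletal targets of SRF and its MRTF partners, 16 tested of 20 listed, had a median difference of 0.08 (0.04 without leukemic replicate 4) and a median control SD of 0.16, and 0 passed. *Acta2*, smooth muscle actin (0.29 ± 0.11), and *Zyx*, a focal adhesion protein (0.27 ± 0.11), had unadjusted limma p-values of 0.0206 and 0.0295, and *Fhl1* differed by 0.41 ± 0.24 (0.22 without leukemic replicate 4).

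B cell transcripts moved with the leukemic group. Of 25 B cell markers 20 had a probe and 9 were tested, of which 6 rose past the rank product threshold, led by *Mzb1* (2.40), *Cd79b* (1.68) and *Cd52* (1.53). Without leukemic replicate 4 these differences were 1.46, 1.10 and 0.96, and the median difference over the 9 markers was 0.57 in place of 1.31. Their mean log2 level was 6.17 to 6.51 on the control arrays and 6.73 to 9.25 on the leukemic arrays, with the maximum on leukemic replicate 4, and the summed raw signal over the list was 901 to 1281 and 1628 to 9727. *Ms4a1*, *Pax5* and *Spib* were detected on none of the 8 arrays. Control replicate 3, the array with the highest member mean, had a B cell marker mean of 6.42, inside the range of the other control arrays. That mean joins markers that went opposite ways. *Mzb1* (7.54), *Cd79b* (6.57) and *Cd52* (6.66) were higher on control replicate 3 than on any other control array. *Fcmr* (5.97), *Cd74* (7.39), *H2-Ab1* (6.48) and *Ebf1* (5.91) were lower there than on any other control array. Leukemic replicate 3 had a B cell marker mean of 6.94. B cells themselves transcribe many of the members, and the part of B cell RNA in the values of leukemic replicate 4 was not tested. Markers of leukocytes in general had means of 7.79 to 8.12 and 7.92 to 9.18, and those of myeloid cells 7.10 to 7.45 and 7.36 to 8.63.

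Stroma and fibroblast markers had mean log2 levels of 12.11 to 12.30 on the control arrays and 11.98 to 12.26 on the leukemic arrays, with 0 of 13 tested past the rank product threshold (1 at an unadjusted limma p below 0.05), and heat shock genes 10.61 to 10.80 and 10.55 to 10.72, with 0 of 10 (0 at an unadjusted limma p below 0.05). Control replicate 3 was high for immediate early and other early response genes. Its stroma marker mean (12.11) was the lowest of the control arrays. Its heat shock mean (10.80) was close to that of control replicate 2 (10.78).

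**Figure D4:**
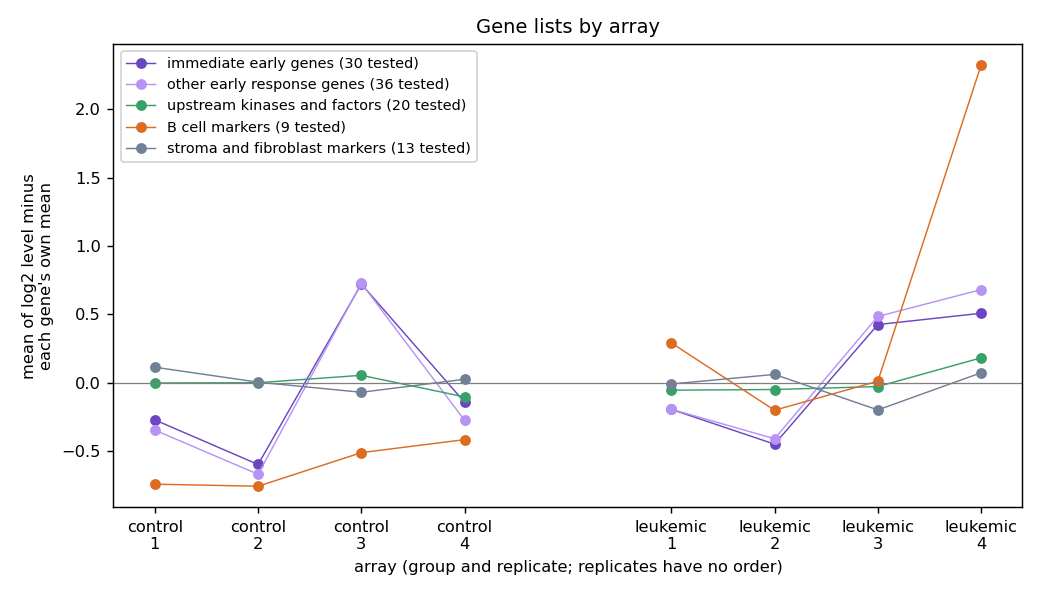
Mean over each list of the log2 level minus each gene's own mean over the 8 arrays, by array, for immediate early genes, other early response genes, upstream kinases and factors, B cell markers and stroma markers. Both early response lists reach about the same height on control replicate 3 (0.72 and 0.73), where the mean of the B cell markers is -0.51. Only on leukemic replicate 4 does the B cell marker mean stand far above all others (2.32).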

How the data were processed

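Total RNA of sorted stroma was hybridised to Illumina mouse bead arrays, 4 control and 4 leukemic. The deposited signal table gives, for 25697 probes, a linear intensity per array, without normalization across arrays, beside its detection p-value, per the file headers. The authors also deposited a matrix on a log2 scale that they normalized with the lumi package, used only as an alternative. Its background and transformation settings are not given in the sources used here.

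The signals were processed with neqc of limma 3.58.1 in R 4.3.3 (background inferred from detection p-values, offset 16, quantile normalization, log2). Probes detected at p below 0.05 on at least 4 of 8 arrays were kept (13732, with 11965 removed), and 1719 of all probes did not have exactly 1 gene name. The brightest probe stood for a gene, which gave 9971 features, 9174 with a symbol. Leukemic was compared with control by a 2-class unpaired rank product, written here after the method the study used (16 array pairs, 100 permutations within arrays, q below 0.05), and by limma's 2-sided moderated test with a mean-variance trend and Benjamini-Hochberg adjusted p-values. Both were tested on simulated data in which every feature had the same small spread. That test does not show how they behave for genes that vary widely between replicates, such as *Csrnp1* and *Fosb*. Differences, SEs and 95% intervals are from limma. SDs, counts and medians over lists are descriptions.

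Members and lists were chosen with earlier results of these data known. Values per array are given for members past rank product q 0.05 or unadjusted limma p below 0.05, with groups that do not overlap, with the 5 highest and 5 lowest differences or with the 5 largest SDs, and at most 3 genes are named of other lists. *Fos*, *Egr1*, *Egr2* and *Dusp1*, whose levels are also given, were chosen after their values were seen. So were other members of lists named for their spread, detection or level on control replicate 3. Alternatives were no background correction, median scaling, the authors' values, other detection rules, every probe as a feature, offset 50, a replicate block and leaving out each array. Promoter windows are from RefSeq (GRCm38.p6).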

Additional observations from a re-analysis of the deposited data

Results flagged for a closer look

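Single arrays lay far from the other 3 of their group for 6 members and 1 list mean, which are 7 of 78 groups of 4 arrays examined, where chance alone flags about 1 in 20. Control replicate 3 was the high array for *Fosl1* (9.70, next 8.78), *Dusp6* (12.78, next 12.54), *Egr2* (10.97, next 9.37), *Gadd45b* (10.92, next 8.63) and *Maff* (7.22, next 6.19), all log2 levels. Leukemic replicate 4 was the high array for *Zfp36l1* (14.42, next 13.91) and for the mean of the upstream kinases and factors (9.31, next 9.10). These flags share arrays and are not independent of each other.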

How the results depend on the processing

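The features that rose by rank product numbered 22 without background correction, 10 with the authors' values, 56 without a detection filter, 24 with offset 50 and 6 to 41 when 1 array was left out, against 37. The features that fell numbered 4 with the authors' values, 8 without a filter, 3 with detection at p below 0.01 on all 8 arrays, 17 with the replicate block and 0 to 15 when 1 array was left out, against 0. *Csrnp1*, the only member called with all arrays, was also called under every other scaling, filter, probe and block alternative run, and lost the call in 5 of the 8 fits that left out 1 array. With 1 array left out, 12 to 21 members had a higher leukemic mean, their median difference ran from -0.040 to 0.28 and their median control SD, an alternative chosen after seeing the data, from 0.24 to 0.61. Of 477 recomputed member differences, 440 kept sign and side of the threshold within the spread between replicates, 28 moved, 4 became calls and 5 lost the call. Many of the 440 could not move. With other detection rules and with the replicate block the same probe values gave identical differences, and only the calls could change. Genes with a single probe were likewise fixed when every probe was a feature. Without leukemic replicate 4, 23 members turned or moved by over 1.5 times. With the authors' values and without control replicate 2 the largest control SD was that of *Cxcl1* instead of *Fosb*.

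The groups share replicate numbers, and same-numbered arrays correlated at 0.25, 0.30, 0.19 and 0.03 in their deviations from the group means (members 0.67, 0.91, 0.85 and 0.33). As 3 of 4 pairs, not all, were above 0.1, and the labels tie no number to a shared day or donor, the arrays were not treated as paired, although 3 of 4 arrays in each group correlated best with their own number. With a replicate block 43 features rose and 17 fell by rank product, *Csrnp1* among them (q = 0.0236), 0 passed limma (smallest adjusted p = 0.435), and 1011 features and 5 members had an unadjusted limma p below 0.05: *Dusp4* (0.0102), *Klf6* (0.0126), *Ier3* (0.0164), *Dusp1* (0.0353) and *Csrnp1* (0.0457). The SE fell with the block for *Fosb* (1.13 to 0.35), *Csrnp1* (0.87 to 0.46) and *Fos* (0.57 to 0.18), and rose for some members, such as *Btg1* (0.11 to 0.12). The cause of these changes was not tested. All other SEs and intervals given here are unpaired and include any spread that same-numbered arrays share. Low signals close to background, as for *Egr3*, *Dusp2*, *Maff*, *Ier2* and the lower arrays of *Nr4a2*, limit what could be detected. The *Nr4a2* difference of 0.58 was 0.41 without background correction and 0.19 with the authors' values.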
